A study of Sus scrofa with 9 samples.

Results

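FCN2 and C4A are complement genes whose FPKM was higher in Wujin than in Large White muscle before birth. FPKM is a fragment count scaled by transcript length and library size. They are 2 of 19597 distinct gene identifiers, found by symbol and chosen by their higher FPKM in Wujin than in Large White libraries. Each symbol matched 1 entry, ENSSSCG00000023333 for FCN2 and ENSSSCG00000001427 for C4A, and both entries passed the filter of a mean of at least 1 FPKM over the libraries. The difference between Wujin and Large White is therefore given below as a description, with no test.

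RNA came from the longissimus dorsi, a muscle along the spine, of embryos of 3 pig breeds, with 3 libraries each. Tibetan and Wujin pigs are breeds native to China, and Large White is a breed introduced there. The labels name no day of gestation, sex or treatment for any group, and none says whether each library is another animal. The spread behind every p-value is thus that of these samples and may be technical. One Wujin library carries the number 1, and the other two share a header and are called Wujin a and Wujin b.

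Complement is a cascade of plasma proteins that coats and lyses microbes and clears debris. It is started by C1q on antibody and other surfaces (the classical pathway), by lectins that recognise sugars and acetylated groups (the lectin pathway), or by slow activation of C3 itself (the alternative pathway). Ficolins are lectins with a collagen-like stalk and a fibrinogen-like head that binds acetylated sugars, and they carry the MASP proteases. In humans, FCN2 encodes L-ficolin, a plasma protein made mainly by the liver. C4 lies downstream of both C1 and the MASPs: once cleaved, its larger part attaches to the target and joins with a part of C2 to form the enzyme that cleaves C3. In humans C4 is also made outside the liver, by macrophages and fibroblasts among others, and interferon gamma raises its transcription. So one of the genes encodes a recognition molecule at the head of the lectin pathway, and the other encodes a substrate of the protease that such a molecule carries.

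Library depth was even, at 1 to 1.22 times that of Large White 1 as judged from the steps between low values, although the number of fragments behind a value is unknown. The 3 Tibetan libraries differed from the rest in how their FPKM was spread over the entries. Their FPKM totals were 590532 to 677783, against 505042 to 550483 for the Wujin and 541521 to 586937 for the Large White ones. The Tibetan median FPKM over the 13106 entries tested was nevertheless lower, at 3.15 to 3.61, against 4.84 to 6.27 for the Wujin and 6.72 to 7.20 for the Large White ones. For comparisons with Tibetan libraries, relative log2 changes are therefore given too, which are the fitted change minus the median change of all entries tested. That median was -0.77 for Tibetan minus Large White, -0.55 for Tibetan minus Wujin, -0.67 for Tibetan minus the mean of both other breeds and -0.20 for Wujin minus Large White. Subtracting it shifts all entries alike and does not remove a difference in the make-up of the libraries. The tissue label was borne out by the muscle list, since TNNC2, the fast troponin C, averaged 20760, 10300 and 5549 FPKM in Tibetan, Wujin and Large White libraries. ACTA1, skeletal alpha-actin, is listed at 0 in Tibetan 2 but at 3208 FPKM or more in every other library, so a 0 in this table can be a failed estimate.

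FCN2 stood at 2.32, 7.08 and 6.38 FPKM in Tibetan 1, 2 and 3. It stood at 7.44, 12 and 7.20 FPKM in Wujin 1, a and b. It stood at 0.892, 3.48 and 0.428 FPKM in Large White 1, 2 and 3. All Wujin libraries lay above all Large White libraries, Tibetan 2 and 3 lay just under the lowest Wujin library, and Tibetan 1 lay within the Large White range. The breed means were 5.26 ± 2.57 FPKM in Tibetan, 8.89 ± 2.72 in Wujin and 1.60 ± 1.64 in Large White libraries (SD, n = 3 each). In rank among the tested entries, FCN2 lay above 54.4% to 69.7% of them in Wujin libraries and above 1.61% to 27.0% in Large White libraries. It was thus a gene of middle level in Wujin muscle and close to the bottom of the tested range in 2 of the 3 Large White libraries.

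C4A stood at 9.81, 6.02 and 3.74 FPKM in Tibetan 1, 2 and 3. It stood at 25.1, 5.82 and 8.10 FPKM in Wujin 1, a and b. It stood at 1.43, 3.01 and 1.91 FPKM in Large White 1, 2 and 3. The Large White libraries were the lowest 3 of the 9, the Tibetan and Wujin ranges overlapped, and Wujin 1 lay far above every other library. The breed means were 6.52 ± 3.07 FPKM in Tibetan, 13.0 ± 10.6 in Wujin and 2.12 ± 0.809 in Large White libraries (SD, n = 3 each). Wujin 1 alone lifts the Wujin mean of C4A, because the ratio of Wujin to Large White means was 6.15 with it and 3.29 without it.

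**Figure D1:**
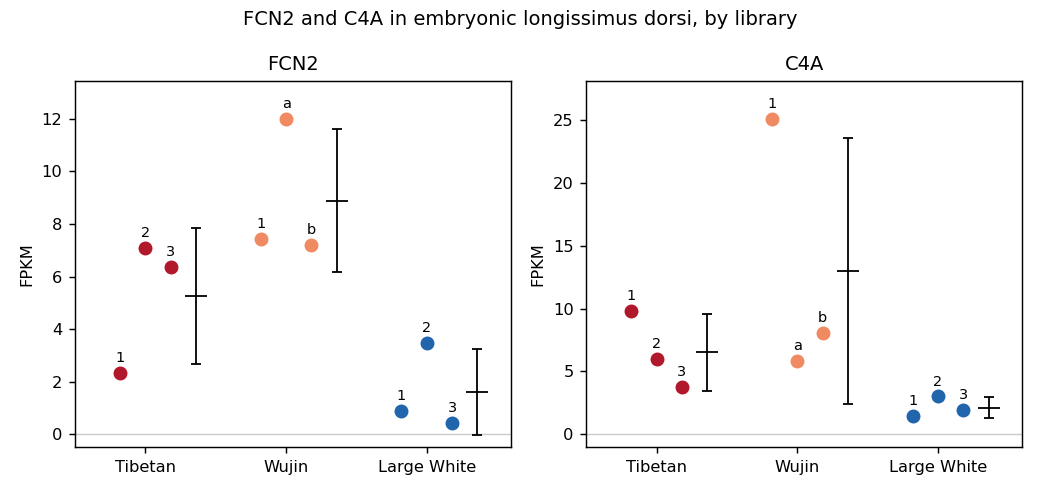
FPKM of FCN2 (left) and C4A (right) on linear axes, 1 point per library with its replicate name, and the breed mean with its SD as a black bar (n = 3 each). All 3 Wujin points lie above all 3 Large White points for both genes, and Wujin 1 stands at 25.1 FPKM for C4A.

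Within the Tibetan and within the Wujin libraries, the highest library for one gene was not the highest for the other. Over all 9 libraries, Large White 1 and Large White 3 were the lowest for both genes. Tibetan 1 was the lowest Tibetan library for FCN2 and the highest for C4A, and Wujin a was the highest Wujin library for FCN2 and the lowest for C4A. Large White 2 was the highest Large White library for both. Since FPKM is scaled by length, the levels of both genes can be set against each other within a library. C4A was 0.587 to 4.23 times FCN2 for Tibetan, 0.484 to 3.38 times for Wujin and 0.865 to 4.47 times for Large White libraries, so neither gene was the higher one throughout any breed.

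On the scale log2(FPKM + 1), which understates the change of low genes, Wujin minus Large White was 2.07 ± 0.46 for FCN2 and 1.95 ± 0.48 for C4A (fitted change with its standard error). For Tibetan minus Large White the fitted changes were 1.34 ± 0.46 and 1.22 ± 0.48, or 2.12 and 1.99 relative to all entries. For Tibetan minus Wujin they were -0.73 ± 0.46 and -0.72 ± 0.48, or -0.18 and -0.17 relative to all entries. These pairs of breeds share libraries with the comparison that chose the genes, so no p-value is attached to them. FCN2 and C4A thus had similar values in each pair of breeds. In order of mean level both genes ran Wujin, Tibetan, Large White. For FCN2 Tibetan minus Wujin means gave -3.63 FPKM against a pooled SD of 2.65, and every Tibetan library was below every Wujin library. For C4A Tibetan minus Wujin means gave -6.5 FPKM against a pooled SD of 7.77, and 3 of the 9 pairs of libraries had the Tibetan one higher. Tibetan and Large White means were 3.66 FPKM apart for FCN2 against a pooled SD of 2.16, with 8 of 9 pairs higher in Tibetan. For C4A they were 4.41 FPKM apart against a pooled SD of 2.24, with 9 of 9 pairs higher in Tibetan. As background, all Wujin libraries lay above all Large White libraries in 9.67% of the entries tested, and below them in 35.3%. All Tibetan libraries lay above all Large White libraries in 14.1% and below them in 66.5%, and above all Wujin libraries in 14.2% and below them in 53.5%. The widest spread within a breed was that of FCN2 in Large White, where the highest library was 8.13 times the lowest. Without Large White 2 the ratio of means was 13.5 for Wujin over Large White, against 5.56 with it, and 7.97 for Tibetan over Large White, against 3.29 with it. Without Wujin 1 the ratio of Tibetan to Wujin means of C4A was 0.937, against 0.501 with it.

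The rule for these genes did not use how Tibetan libraries compare with the mean of the other 2 breeds, although earlier results of these data were known. That contrast is orthogonal to Wujin minus Large White, but independent of it only where both breeds have the same spread. The SD of log2(FPKM + 1) in Wujin and Large White was 0.374 and 0.859 for FCN2, and 1.02 and 0.365 for C4A. The Tibetan contrast was tested with limma in a fit across all 13106 entries. Of these, 76.3% were called at a Benjamini-Hochberg adjusted p under 0.05 (14.3% higher and 62% lower in Tibetan libraries). FCN2 averaged 5.26 ± 2.57 FPKM in Tibetan libraries, within the range of the other 6. Its fitted change was 0.31 ± 0.40 (95% interval -0.59 to 1.21; adjusted p = 0.498) and its relative change was 0.97 (0.076 to 1.87). For C4A the fitted change was 0.25 ± 0.42 (95% interval -0.70 to 1.19; adjusted p = 0.601) and the relative change was 0.92 (-0.0275 to 1.86). Neither gene was called. An exact two-sided permutation test of the 3 Tibetan against the 6 other libraries gave p = 0.726 for FCN2 and p = 0.750 for C4A, where 0.0119 is the smallest that the 84 splits allow. Those splits mix Wujin and Large White libraries, which the choice of genes set apart. That gap widens the spread of the splits, so a large p from this permutation test decides nothing. After quantile normalization FCN2 was called higher in Tibetan libraries (0.98, adjusted p = 0.048), while C4A was not (0.96, adjusted p = 0.0885). The fitted value of C4A turned to -0.053 without Tibetan 1.

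Of the other 50 genes on 7 lists of the complement system, 32 were matched by symbol and 13 passed the filter, which a gene can pass through its high group alone. FCN1 and FCN3, the other ficolins, and MBL1, a mannose-binding lectin, are among the 18 not matched. FCN1 is a close paralog of FCN2 and its neighbour in the RefSeq gene table of Sscrofa11.1, so how the authors' counting divided reads between both is uncertain. C4B, in humans a near-identical copy of C4A, is also unmatched, and reads of such a copy would be uncertain in the same way. MBL2, another mannose-binding lectin, is listed at 1.26 FPKM in Tibetan 1 and at 0 in the other 8 libraries. The collectins COLEC10 and COLEC11, which also start the lectin pathway, had means of at most 0.12 and 0.555 FPKM in any breed. FCN2 therefore had the highest mean in each breed of the 4 lectin pathway recognition genes that were matched, although COLEC11 (0.677 FPKM) was above FCN2 (0.428 FPKM) in Large White 3.

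**Figure D2:**
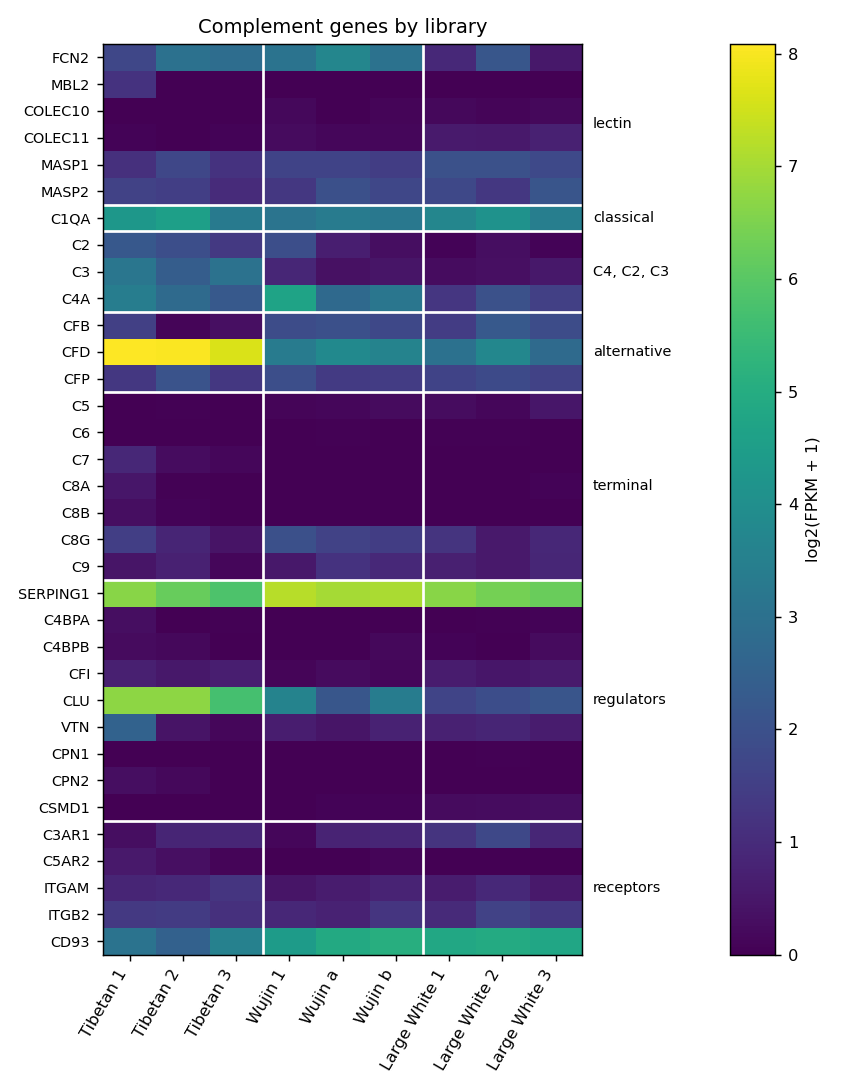
Level of the 34 matched complement genes, as log2(FPKM + 1) in colour, in the 9 libraries (columns, by breed) and by role (rows). C4A is brightest in Wujin 1, CFD and CLU are brightest in the Tibetan libraries, and SERPING1 is bright in all 9.

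In Wujin minus Large White, 0 of these 13 genes were called by limma, against 6.52% of all entries tested, and 3 had an unadjusted p under 0.05, against 32.4% of all entries. Those 3 were higher in Wujin: SERPING1, the inhibitor of the C1 and MASP proteases, CLU, or clusterin, which blocks the membrane attack complex, and C8G, a chain of that complex. Their values were 0.66 ± 0.20 (adjusted p = 0.073), 1.16 ± 0.39 (adjusted p = 0.088) and 0.77 ± 0.29 (adjusted p = 0.109). The median change of the 13 genes was 0.026, against -0.20 over all entries. With no filter on low values 3 of the 32 genes were called, against 4.46% of all entries, and all 3 were lower in Wujin, against 3.21%: COLEC11, CFI, the protease that degrades C3b and C4b, and CSMD1, a membrane regulator of C3 activation.

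The MASP proteases, which ficolins carry, had their highest breed means in Large White libraries, unlike FCN2. MASP2, which cleaves C4 and C2, averaged 1.61 ± 0.534 FPKM in Tibetan, 2.23 ± 0.721 in Wujin and 2.41 ± 0.947 in Large White libraries, and it was not called in any pair of breeds (limma, adjusted p = 0.882 for Wujin minus Large White). MASP1, which activates MASP2, averaged 1.60 ± 0.631, 1.97 ± 0.196 and 2.84 ± 0.308 FPKM in Tibetan, Wujin and Large White libraries. Tibetan minus Large White was -0.59 ± 0.17 for MASP1 (adjusted p = 0.0123), which is 0.19 relative to all entries. It turned to 0.077 after median-ratio scaling and to 0.32 after quantile normalization, and it was not called with equal totals without the 50 highest genes (-0.41). Of the classical pathway 1 gene of 6 was matched, C1QA, a chain of the recognition molecule C1q. It averaged 16.7 ± 6.88 FPKM in Tibetan, 8.51 ± 0.841 in Wujin and 12.9 ± 3.19 in Large White libraries, an order unlike that of C4A. It was called in Tibetan minus Wujin (0.81 ± 0.29, relative change 1.36, adjusted p = 0.0329), but not with equal totals (0.60) or with only the 6 libraries of both breeds (0.81), nor without Tibetan 1 (0.71), Tibetan 2 (0.56), Wujin 1 (0.75), Wujin a (0.88), Wujin b (0.81) or Large White 1 (0.81).

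C2 and C3, the partner and the next substrate of C4, had their highest breed means in Tibetan libraries. C2 stood at 3.66, 2.87 and 1.54 FPKM in Tibetan 1, 2 and 3, at 2.86, 0.598 and 0.237 FPKM in Wujin 1, a and b, and at 0.0672, 0.233 and 0.0575 FPKM in Large White 1, 2 and 3. The Tibetan libraries all lay above the Large White libraries, and Wujin 1 was the highest Wujin library, as it was for C4A. Among the Tibetan libraries Tibetan 1 was the highest and Tibetan 3 the lowest for both genes. C2 rose in Tibetan minus Large White (1.68 ± 0.39, relative change 2.45, adjusted p = 0.00341) and was not called in Wujin minus Large White (0.82 ± 0.39, adjusted p = 0.180) or in Tibetan minus Wujin (0.86 ± 0.39, relative change 1.41, adjusted p = 0.0772). C2 would not have reached the filter without its Tibetan libraries. With no filter its adjusted p by limma was 0.00605 in Tibetan minus Large White. C3 stood at 7.97, 4.21 and 7.32 FPKM in Tibetan 1, 2 and 3, at 0.826, 0.275 and 0.381 FPKM in Wujin 1, a and b, and at 0.199, 0.265 and 0.433 FPKM in Large White 1, 2 and 3. It rose in Tibetan minus Large White (2.49 ± 0.23, relative change 3.27, adjusted p = 9.74e-06) and in Tibetan minus Wujin (2.31 ± 0.23, relative change 2.86, adjusted p = 2.11e-05), while Wujin minus Large White was 0.19 ± 0.23 (adjusted p = 0.580). C3 passed the filter through its Tibetan level alone; with no filter the adjusted p was 2.84e-05 in Tibetan minus Large White and 5.96e-05 in Tibetan minus Wujin. The ratio of C4A to C3 within a library was 0.511 to 1.43 for Tibetan, 21.2 to 30.4 for Wujin and 4.41 to 11.3 for Large White ones. The ratio of C4A to C2 was 2.10 to 2.68 for Tibetan, 8.79 to 34.1 for Wujin and 12.9 to 33.2 for Large White ones. Both ratios were lowest in the Tibetan libraries. Those of Wujin and Large White overlapped fully for C2 and not for C3, but C3 was under 1 FPKM in all 6 of these libraries and C4A was chosen by this difference.

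In Tibetan minus Large White, 4 of the 13 other complement genes rose and 3 fell, against 13% and 63.2% of all entries (76.2% in all). In Tibetan minus Wujin 4 rose and 4 fell, against 13.8% and 53.9% of all entries (67.7% in all). After median-ratio scaling the counts were 7 higher and 1 lower in Tibetan minus Large White, and 6 higher and 1 lower in Tibetan minus Wujin. After quantile normalization they were 8 higher and 1 lower, and 6 higher and 2 lower. These scalings also move the split of all entries, so the shares above are not their background. After median-ratio scaling 4245 of the 13106 entries were called higher and 4326 lower in Tibetan minus Large White. CFD, the protease that starts the alternative pathway, averaged 243 ± 42.2 FPKM in Tibetan, 11.3 ± 2.06 in Wujin and 8.44 ± 3.48 in Large White libraries. It rose by 4.74 ± 0.25 in Tibetan minus Large White (relative change 5.51, adjusted p = 4.32e-07). CLU averaged 85.7 ± 30.4, 8.10 ± 4.05 and 2.77 ± 0.634 FPKM in Tibetan, Wujin and Large White libraries and rose by 4.46 ± 0.39 in Tibetan minus Large White (relative change 5.24, adjusted p = 8.03e-06). CFB, the alternative pathway counterpart of C2, fell in Tibetan minus Large White (-1.18 ± 0.35, relative change -0.41, adjusted p = 0.0128), a call that ended with median-ratio (-0.71) or quantile (-0.26) scaling, in the block fit on replicate numbers (-1.18), and without Tibetan 2 (-0.90) or Large White 2 (-0.97). CD93, once described as a receptor of C1q, averaged 7.64 ± 2.97, 27.4 ± 6.33 and 28.0 ± 1.39 FPKM in Tibetan, Wujin and Large White libraries and fell by 1.81 on the log2 scale in Tibetan minus Large White (relative change -1.03, adjusted p = 0.000156). The change of CD93 was -0.91 after median-ratio scaling and -1.20 after quantile normalization, and it was still called under both. SERPING1 averaged 76.2 ± 21.9, 136 ± 10.7 and 86.2 ± 13.1 FPKM and fell by 0.86 on the log2 scale in Tibetan minus Wujin (relative change -0.31, adjusted p = 0.00432), but by 0.13 after median-ratio scaling, where it was not called. C8G, which passed the filter through its Wujin level alone, also fell in Tibetan minus Wujin (-0.75 ± 0.29, relative change -0.20, adjusted p = 0.0430), a call that did not hold without Tibetan 2 (-0.71), Tibetan 3 (-0.50), any single Wujin library (-0.61, -0.80 and -0.85 without 1, a and b) or Large White 3 (-0.75), with a pseudocount of 0.1 (-1.33), no filter or only the 6 libraries of both breeds (both -0.75), or after median-ratio scaling (-0.37), quantile normalization (-0.074) or equal totals without the 50 highest genes (-0.70). The plasma components of the terminal pathway were low, with C5, C6, C7, C8A, C8B and C9 all under the filter.

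**Figure D3:**
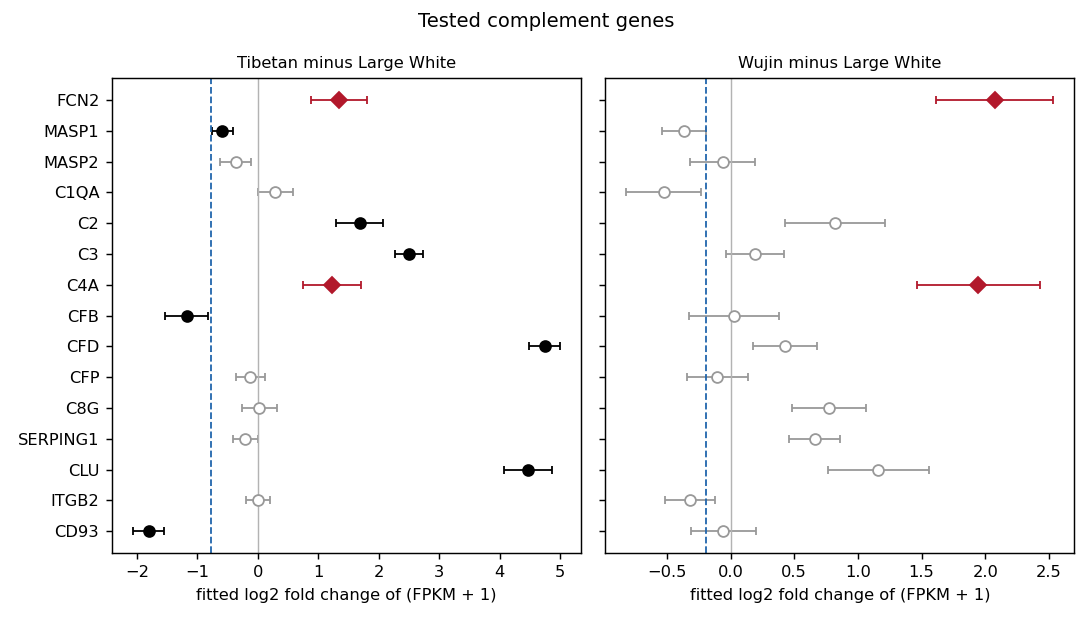
Fitted log2 fold change of FPKM + 1 with its standard error for the 15 tested complement genes, for Tibetan minus Large White (left) and Wujin minus Large White (right). Red diamonds are FCN2 and C4A, filled black circles are other genes called at an adjusted p under 0.05, open grey circles are genes not called, and the dashed blue line is the median of all entries; FCN2 and C4A were chosen by the difference in the right panel and not tested there, and all 13 other genes are open circles in it.

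C4A lies in the class III region of the major histocompatibility complex, among genes of many functions. In the RefSeq table STK19 precedes it and CYP21A2, the adrenal steroid 21-hydroxylase, follows it, with TNXB next. Of 22 symbols listed for this region beside C2 and CFB, 21 were matched and 17 passed the filter. In Wujin minus Large White 1 of these 17 was called higher and 0 lower, against 1.67% and 4.85% of all entries. Of the 17, 3 had an unadjusted p under 0.05, against 32.4% of all entries. In Tibetan minus Large White 1 was called higher and 11 lower, where 13% and 63.2% of all entries were. After median-ratio scaling the counts were 7 higher and 4 lower, against 4245 higher and 4326 lower of all 13106 entries. The gene called in Wujin minus Large White was TNXB, which encodes tenascin-X, a glycoprotein of connective tissue matrix. It stood at 18.5, 17.3 and 13.4 FPKM in Tibetan 1, 2 and 3, at 43.7, 45.1 and 55.2 FPKM in Wujin 1, a and b, and at 17.7, 24.2 and 18.3 FPKM in Large White 1, 2 and 3. All Wujin libraries lay above all others, and Wujin minus Large White was 1.22 ± 0.17 (limma, adjusted p = 0.00958), with an adjusted p of 0.0571 without Large White 3. Wujin 1, the highest library for C4A, was the lowest Wujin library for TNXB. STK19 averaged 6.87 ± 0.305, 11.2 ± 0.802 and 10.3 ± 0.528 FPKM in Tibetan, Wujin and Large White libraries (Wujin minus Large White 0.11 ± 0.10, adjusted p = 0.476), and CYP21A2 averaged at most 0.113 FPKM in any breed. The listed spans of CYP21A2 and TNXB overlap, and whether strand was used in counting is not given in the sources used here. For FCN2, the neighbours COL5A1, a collagen chain, and OLFM1, an olfactomedin, had changes of 0.16 ± 0.18 (adjusted p = 0.558) and -0.0096 ± 0.26 (adjusted p = 0.984) in Wujin minus Large White.

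**Figure D4:**
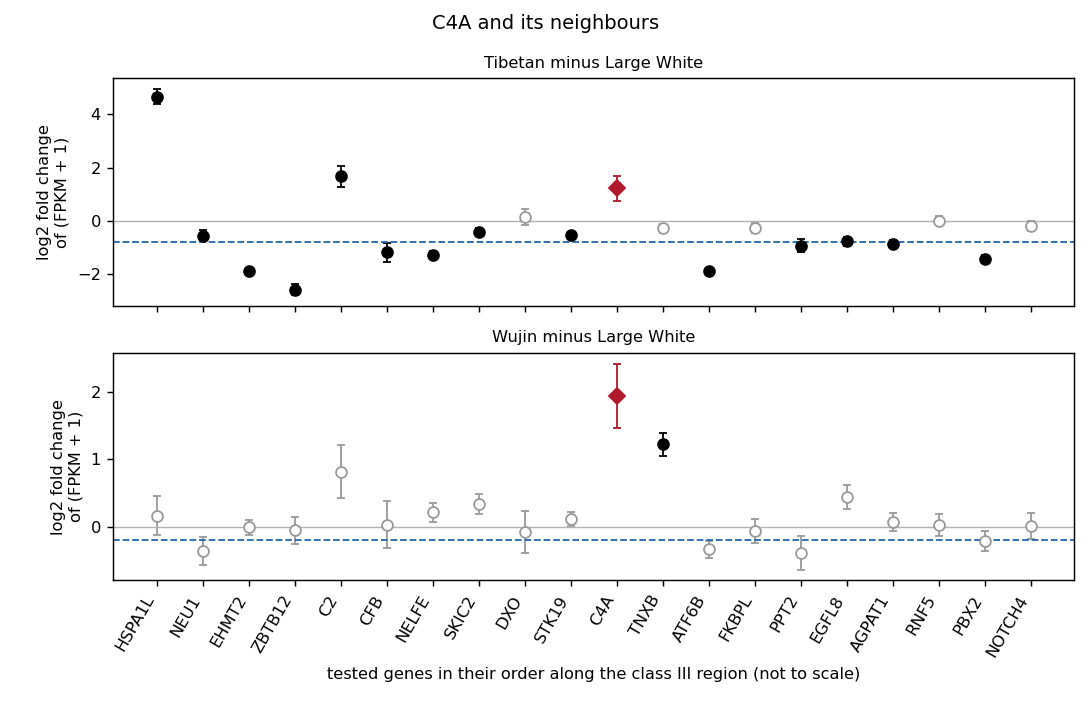
Fitted log2 fold change of FPKM + 1 with its standard error for C4A (red diamond) and the 19 tested genes around it in order along the region, not to scale, for Tibetan minus Large White (top) and Wujin minus Large White (bottom). Filled black circles are called and open grey circles are not, and the dashed blue line is the median of all entries; in the bottom panel TNXB at 1.22 is the one neighbour called, and in the top panel HSPA1L, a heat shock gene with near-identical paralogs, is highest at 4.66.

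Marker genes of the tissues and cells that make these proteins were set beside both genes. In bulk muscle, fewer cells of a type and less RNA per cell cannot be told apart. The 14 matched genes of liver and fetal plasma proteins summed to 16.1 to 90.8 FPKM in Tibetan libraries, to 70.9 to 87.8 FPKM in Wujin libraries and to 72.5 to 159 FPKM in Large White libraries. In Wujin minus Large White 0 of the 10 tested were called by limma in either direction, against 6.52% of all entries, 5 had an unadjusted p under 0.05, against 32.4%, and the median change was -1.06. TTR and APOA2, both liver products, are listed at 0 in all 3 Wujin libraries and in Tibetan 3, and APOA2 also in Large White 1. ALB, albumin, averaged 12 ± 12.8, 0.823 ± 0.343 and 1.33 ± 0.306 FPKM in Tibetan, Wujin and Large White libraries. APOA1, an apolipoprotein, made up most of the Wujin sums, at 65.3, 72.1 and 83.0 FPKM in Wujin 1, a and b, against 63.5, 76.2 and 73.8 FPKM in Large White 1, 2 and 3. Without it, a choice made after seeing the data, the sums were 81.1, 25.3 and 3.05 FPKM in Tibetan 1, 2 and 3, 5.54, 5.1 and 4.72 FPKM in Wujin 1, a and b, and 9.03, 61.2 and 85.3 FPKM in Large White 1, 2 and 3. Every Wujin library then lay below every Large White library, with Large White 1 the nearest. With APOA1 the Wujin and Large White ranges overlapped. ALB stood at 25.7, 9.91 and 0.342 FPKM in Tibetan 1, 2 and 3, so Tibetan 1 was the highest and Tibetan 3 the lowest, as for C4A and C2. The part of liver RNA in the values of FCN2, C4A and C2 was not tested.

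The 9 matched macrophage and monocyte markers, with none at 0 in every library of a breed, summed to 17.1 to 37.6 FPKM in Tibetan libraries, to 13.9 to 22.6 FPKM in Wujin libraries and to 23.1 to 36.1 FPKM in Large White libraries. The 6 neutrophil markers summed to 1.37 to 2.56, 1.27 to 2.28 and 0.934 to 1.47 FPKM, and the 9 lymphocyte markers to 3.99 to 6.68, 3.04 to 7.35 and 3.36 to 5.67 FPKM. Of these 3 lists 5, 0 and 1 markers passed the filter, and 0 were called by limma in Wujin minus Large White, or had an unadjusted p under 0.05. Of all entries 6.52% were called and 32.4% had such an unadjusted p, so 0 calls among so few markers decide little. The 9 fibroblast and mesenchyme markers summed to 537 to 555 FPKM in Tibetan libraries, to 4124 to 6918 FPKM in Wujin libraries and to 7493 to 8263 FPKM in Large White libraries. The fibroblast sum was thus lowest in the Tibetan libraries. It was lower in every Wujin than in every Large White library, unlike C4A, as was the macrophage and monocyte sum. Of single entries tested, 35.3% lay so. Of the 9 fibroblast and mesenchyme genes 0 were called higher and 1 lower in Wujin minus Large White, against 1.67% and 4.85% of all entries. The part of such cells in the C4A values was not tested. The 6 endothelial markers summed to 62.6 to 78.9, 100 to 122 and 113 to 120 FPKM, the 7 erythroid markers to 149 to 580, 1470 to 3838 and 1931 to 3744 FPKM, and the 4 adipocyte markers to 3.27 to 7.23, 1.99 to 5.09 and 2.09 to 4.66 FPKM. The 10 skeletal muscle genes summed to 42350 to 84030 FPKM in Tibetan libraries, to 23020 to 27150 FPKM in Wujin libraries and to 14010 to 18330 FPKM in Large White libraries. Their sum was higher in every Wujin than in every Large White library, as FCN2 and C4A were. Of the 10 genes 4 were called higher and 0 lower in Wujin minus Large White, against 1.67% and 4.85% of all entries, and the part of this difference in both genes' values was not tested.

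Of 17 interferon gamma response genes, 11 were matched and 6 tested. In Wujin minus Large White 0 of the 6 were called by limma or had an unadjusted p under 0.05 (median 0.26). The shares of all entries were 6.52% and 32.4%. In Tibetan minus Large White 3 rose and 2 fell, where 13% and 63.2% of all entries did: IRF1, a transcription factor, TAP1, a peptide transporter, and PSMB8, a subunit of the immunoproteasome, rose, and GBP2, a guanylate-binding protein, and SOCS1, a feedback inhibitor, fell. TAP1 and PSMB8 would not have reached the filter without their Tibetan libraries. After median-ratio scaling or quantile normalization the count was 4 higher and 0 lower. With median-ratio scaling 4245 of all 13106 entries were called higher and 4326 lower. IRF1 averaged 6.67 ± 3.09, 3.12 ± 1.05 and 2.2 ± 0.248 FPKM in Tibetan, Wujin and Large White libraries. Of 14 acute phase genes 5 were matched and 2 tested, ITIH4 and PTX3, and neither was called in Wujin minus Large White (adjusted p = 0.659 and 0.815). In Tibetan minus Large White ITIH4, a plasma protease inhibitor relative, rose (2.90 ± 0.23, relative change 3.67, adjusted p = 4.35e-06), having passed the filter through its Tibetan level alone, and PTX3, a soluble pattern recognition molecule, fell (-2.35 ± 0.27, relative change -1.58, adjusted p = 4.05e-05).

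The named genes most alike to each member in pattern were ranked by the Pearson correlation of log2(FPKM + 1) over the 9 libraries. Libraries of a breed share a level, so these coefficients only describe the libraries. For FCN2 they were ITGB6, an integrin subunit (r = 0.881), GRIP2, a scaffold protein (r = 0.880), ZNF703, a zinc finger protein (r = 0.878), DYRK1B, a kinase (r = 0.860), and ENTREP1, a membrane adaptor protein (r = 0.852). For C4A the 4 reported are CMPK2, a nucleotide kinase (r = 0.929), NMI, a partner of MYC proteins (r = 0.925), CTSZ, a lysosomal protease (r = 0.912), and HERC6, a ubiquitin ligase (r = 0.907). All 9 genes had their lowest breed mean in Large White, as the members did, and the 4 genes alike to C4A were highest in Wujin 1. Both traits follow from choosing genes by likeness over the same libraries. HERC6 stood at 4.0, 2.58 and 2.76 FPKM in Tibetan 1, 2 and 3, at 7.25, 1.52 and 1.94 FPKM in Wujin 1, a and b, and at 0.936, 1.10 and 0.652 FPKM in Large White 1, 2 and 3. CMPK2 stood at 4.33, 1.16 and 0.769 FPKM in Wujin 1, a and b. Wujin 1 thus stood far above Wujin a and b for CMPK2 and HERC6, which by that choice gives no separate support to the C4A value. Neither FCN2 nor C4A was among the 5 genes most alike to the other.

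**Figure D5:**
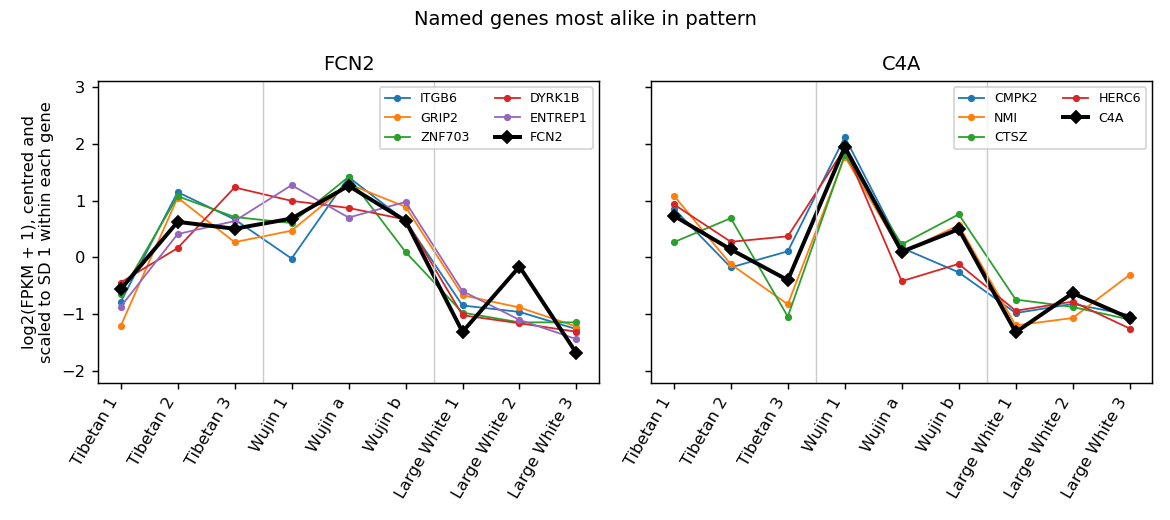
Pattern over the 9 libraries of FCN2 (left) and C4A (right), in black, with the 5 genes alike to FCN2 and the 4 alike to C4A that are named above, as log2(FPKM + 1) centred and scaled to an SD of 1 within each gene. The C4A group peaks in Wujin 1, while the FCN2 group is high in all Wujin libraries and above its mean in Tibetan 2 and 3, apart from ITGB6 near its mean in Wujin 1 and ZNF703 near its mean in Wujin b.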

How the data were processed

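RNA of embryonic longissimus dorsi was measured in 9 libraries. The authors deposited 1 table of FPKM values, per the file headers, for 19643 entries. Per the submitters' processing notes TopHat was used; the sources used here give no quantifier, genome build or annotation. Per the labels' protocols, libraries were built from Trizol RNA with the TruSeq RNA kit. Symbols were matched by identifier for 56.91% of entries, and gene order came from the RefSeq table of Sscrofa11.1. Every column of sample values was used.

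The 13106 entries whose mean reached 1 FPKM were fitted on log2(FPKM + 1) with limma 3.58.1 in R 4.3.3 (3 breed means, all 9 libraries, eBayes with trend), and p-values were adjusted by Benjamini-Hochberg over all entries. Relative depth was read from values below 0.2 FPKM. The fit was checked on simulated data. Alternatives were other pseudocounts, filters, scalings, error models, the 6 libraries of a pair, a replicate block and leaving out each library. Same-numbered Tibetan and Large White libraries did not deviate together (correlations 0.013, -0.023 and -0.076), so the numbers were not taken as pairs.

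The members and the 19 gene lists were chosen with earlier results of these data known. The rule for named genes was FCN2, C4A, the complement lists, up to 4 members of highest mean FPKM in each other list, and the 5 genes most alike to each member; 1 of those alike to C4A and 1 interferon list gene are not reported here. STK19, CYP21A2, COL5A1 and OLFM1 (named for their place), TAP1, PSMB8, TTR and APOA2 fall outside it and were picked with their values known.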

Additional observations from a re-analysis of the deposited data

How the results depend on the processing

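FCN2 and C4A were not called in Tibetan minus the mean of Wujin and Large White under the alternatives run, except FCN2 after quantile normalization (0.98, adjusted p = 0.048). Over these alternatives the fitted value was 0.071 to 0.98 for FCN2 (adjusted p = 0.048 to 0.897) and -0.053 to 0.96 for C4A (adjusted p = 0.0885 to 0.923). Leaving out 1 library at a time gave 0.071 to 0.71 for FCN2 and -0.053 to 0.54 for C4A, whose sign turned without Tibetan 1; the cause was not tested. The described difference of Wujin minus Large White was 1.09 to 2.83 for FCN2 and 1.20 to 2.34 for C4A, and the lowest values came with a pseudocount of 5, which shrinks low genes. The entries called in Wujin minus Large White, 855 (219 higher, 636 lower), numbered 270 and 1831 with pseudocounts of 0.1 and 5, 402 with at least 5 FPKM, where fewer entries are tested, 410 (244 higher, 166 lower) after median-ratio scaling, 453 (239 higher, 214 lower) with equal totals without the 50 highest genes, 280 with only the 6 libraries, and 66 (without Large White 3) to 1633 (without Wujin b) without 1 library. Splits also moved with equal totals (267 higher, 341 lower) and after quantile normalization (548 higher, 471 lower). With at least 5 FPKM, 5533, 5181 and 5613 of 7187 entries were called in Tibetan minus Large White, Tibetan minus Wujin and Tibetan minus the mean of both, against 9983, 8871 and 10004. After median-ratio scaling the calls of Tibetan minus Large White split into 4245 higher and 4326 lower, against 1703 and 8280. Other complement genes called in Wujin minus Large White numbered 0, with a range of 0 to 0 without 1 library, and 3 with no filter. Those called in Tibetan minus Large White numbered 7, with 6 to 8 without 1 library and 3 of 5 with at least 5 FPKM. With no filter they were 13 of 32, against 61.2% of all entries. Those in Tibetan minus Wujin numbered 8, with 6 to 8 without 1 library and 5 of 5 with at least 5 FPKM. MASP1 turned from -0.59 to 0.077 after median-ratio scaling and to 0.32 after quantile normalization in Tibetan minus Large White. With the replicate number as a block on the Tibetan and Large White libraries, 10064 entries and 6 other complement genes were called; the 2 unnumbered Wujin columns allow no block. Leaving out 1 library gave 9240 to 10410 entries in Tibetan minus Large White, 8024 to 9578 in Tibetan minus Wujin and 9446 to 10492 in Tibetan minus the mean of both. The fragments behind an FPKM value are unknown, so no counting error can be given, and levels under 1 FPKM are the least certain.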
